A study of Macaca radiata with 6 samples.

Results

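Expression of ATF5 and of 5 related stress transcription factors, ATF3, ATF4, DDIT3, ATF6 and XBP1, was examined in the corpus luteum (CL) of bonnet monkeys after withdrawal of LH support. Every probe set annotated to exactly these gene symbols was taken, which gave 12 probe sets of 6 genes among the 52707 probe sets tested. ATF5 was chosen by its higher signal after treatment in these same arrays, so its difference between groups is given as a description without a test. The other genes were taken by symbol. Each gene had between 1 and 4 probe sets, with 4 for ATF5, 3 for ATF3, 2 for XBP1 and 1 each for ATF4, DDIT3 and ATF6.

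Adult female monkeys were treated on luteal day 7 with Cetrorelix (CET), a GnRH receptor antagonist that stops pituitary LH secretion, given subcutaneously at 150 μg per kg body weight, or with its vehicle (VEH), a 5.25% glucose solution. CL were taken 24 h after the injection, and RNA of 3 CET and 3 VEH samples was read on rhesus macaque arrays, 1 array for each sample, so the probes were designed for a related species. No genetic alteration is named for either group, and the deposited design text says that CL of both treatments came from the same monkeys, while the sample labels pair no samples. The paper counts animals for each treatment. The p-values measure the spread between these samples and take all arrays as independent, which would not hold if the groups shared monkeys.

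These 6 proteins are bZIP transcription factors of the cellular stress response. When misfolded proteins build up in the endoplasmic reticulum (ER) or amino acids run short, kinases phosphorylate the translation factor eIF2. General translation slows, while the messages of ATF4 and ATF5, which carry upstream open reading frames, are translated more. ATF4 in turn activates DDIT3 (also called CHOP), ATF3 and genes of amino acid supply, and DDIT3 is known for its link to cell death under lasting stress. ATF6 is cut from the ER membrane by Golgi proteases, and XBP1 mRNA is spliced by the ER sensor IRE1 (ERN1). Both then drive genes of ER chaperones and of ER-associated degradation. An array reads the amount of mRNA. It does not read translation, cleavage or splicing, and these steps control much of the activity of ATF4, ATF5, ATF6 and XBP1.

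At the brightest probe set of each gene, the 2 members with the greatest differences after CET moved in opposite directions. The mean signal of DDIT3 was 5.83-fold lower after CET, while that of ATF5 at its brightest probe set was 5.27-fold higher. That probe set was the brightest over all arrays, but another ATF5 probe set was brighter on the VEH arrays (mean log2 10.12 against 9.14). The other ATF5 probe sets had log2 fold changes of 0.36, -0.16 and -0.54. ATF4, ATF3 and XBP1 had lower means and ATF6 a higher mean, with overlapping groups in each of them. Of the 12 probe sets, 9 were lower and 3 higher in the CET mean, where 49.9% of all probe sets had a lower mean. Leaving out CET replicate 2 gave 8 lower, and leaving out CET replicate 3 gave 7. Of the 12 probe sets, 11 lay above the 40th percentile of mean log2 signal. Among genes above that limit, each at its brightest probe set, 57.7% had a lower mean. Probe sets of the same gene are not independent. With Benjamini-Hochberg adjustment over all probe sets, 0 of the 12 and 0% of all probe sets had a limma adjusted p under 0.05, and the smallest was 0.83. Apart from ATF5, which was chosen on these values, an unadjusted p under 0.05 was found for 1 of 8 probe sets, that of DDIT3, in limma and in the methods' t-test, against 5.39% of all probe sets in limma.

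**Figure D1:**
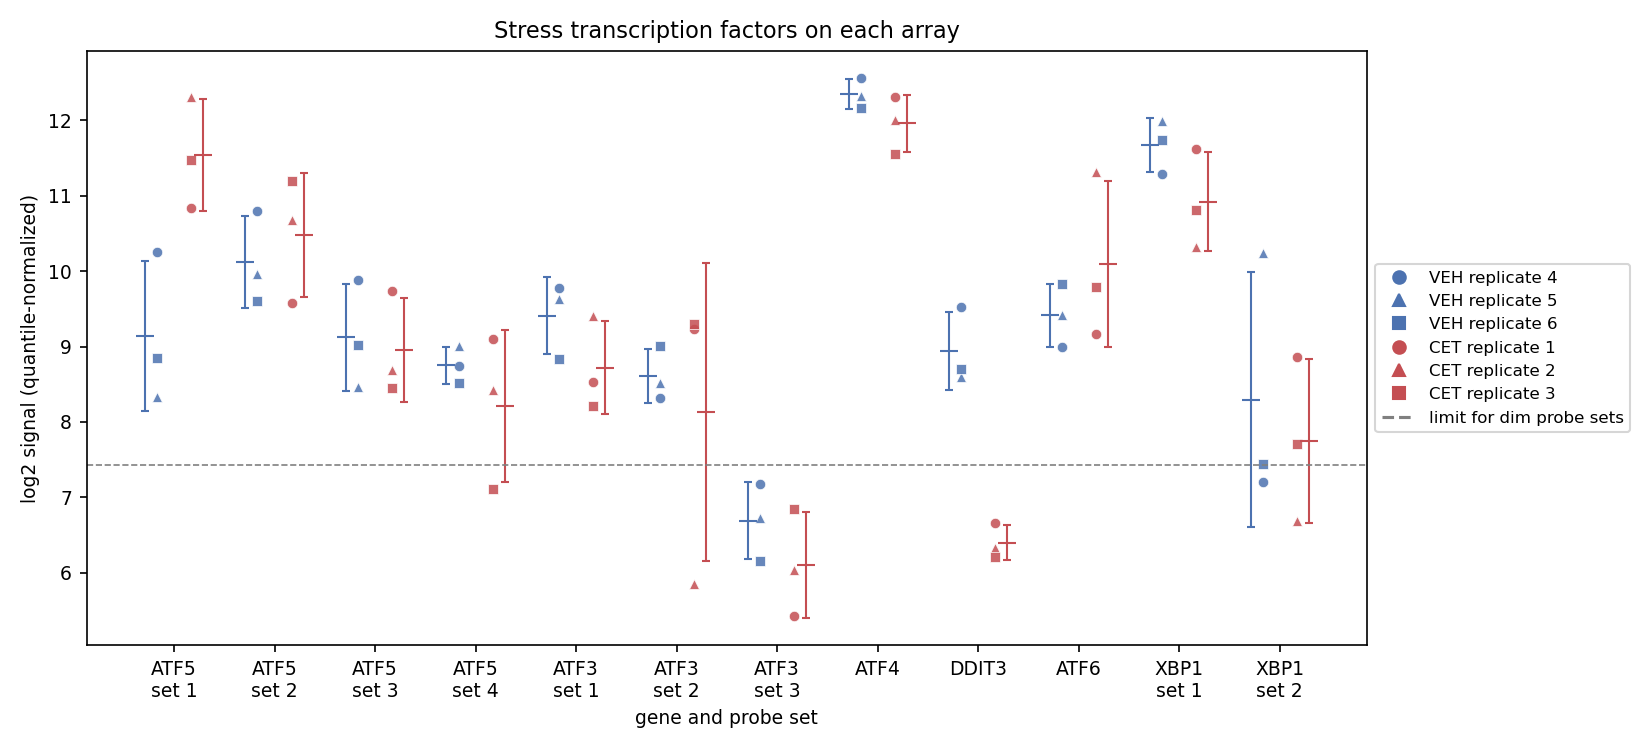
Quantile-normalized log2 signal of the 12 probe sets on each array, with gene and probe set on the horizontal axis, ordered within a gene from the brightest. Symbols are single arrays, and the horizontal marks with bars beside them are group means with 1 SD over 3 arrays. The dashed line is the limit for dim probe sets at 7.43. For DDIT3 all CET arrays lie below all VEH arrays, and for ATF5 set 1 all CET arrays lie above.

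The control probe sets gave a view of RNA quality that bears on the values below. The 3' to 5' signal ratio of GAPDH was 142.9 in CET replicate 2 and 1.79 to 7.31 on the other arrays. VEH replicate 4 had the next highest ratio for each control gene, at 7.31 for GAPDH, 22.4 for ACTB and 9.56 for EF1A. In VEH replicates 5 and 6 the ratio of ACTB was 2.12 and 3.36. Each CET array correlated better with the VEH arrays (mean Spearman rho 0.727 to 0.756) than with the other CET arrays (0.664 to 0.710), with the greatest gap for CET replicate 1. Each VEH array correlated better with its own group (0.775 to 0.813) than with the CET arrays (0.727 to 0.758). The limit for dim probe sets was a mean log2 signal under which 40% of probe sets fell. Each of 8 luteal steroidogenic markers exceeded it in its mean over the arrays. So did 10929 of 14132 genes at their brightest probe set, so exceeding it does not mark luteal tissue. These 8 markers were STAR, HSD3B2, INHA, CYP19A1, CYP17A1, FDX1, NR5A1 and NR5A2, and 8 of 8 were lower in the CET mean. Their summed normalized signal was 37920 to 103800 on the CET arrays and 92670 to 127900 on the VEH arrays. For 7 macrophage and leukocyte markers it was 4585 to 10720 and 3528 to 11330, with 5 of 7 lower, and for 8 endothelial markers 14890 to 26460 and 16320 to 19750, with 7 of 8 lower. Among all genes that were not dim, each at its brightest probe set, 57.7% were lower. Without CET replicate 1, 7 of 8 luteal, 4 of 7 macrophage and leukocyte and 6 of 8 endothelial markers were lower. The part of these shifts in the results below was not tested. In whole tissue, fewer cells of a type and less RNA per cell cannot be told apart.

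DDIT3, the factor downstream of ATF4 in the eIF2 branch, was read by a single probe set, MmugDNA.32495.1.S1_at. The deposited signals were 113, 80.2 and 91.3 in CET replicates 1, 2 and 3. In VEH replicates 4, 5 and 6 they were 714, 332 and 405. The groups did not overlap, and the highest CET array, replicate 1, was well under the lowest VEH array, replicate 5. DDIT3 was the only one of the 12 probe sets with all CET arrays below all VEH arrays, a pattern found in 5.25% of all probe sets.

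After normalization the mean log2 signal of DDIT3 was 6.40 ± 0.23 for CET and 8.94 ± 0.51 for VEH (SD, n = 3 each). The log2 fold change, CET minus VEH, was -2.54 (standard error 0.64), with an unadjusted p of 0.0021 and an adjusted p of 0.83 from limma. Only 0.416% of all probe sets had a lower log2 fold change and 0.135% had a smaller p. The CET mean was under 7.43, the limit for dim probe sets, so signals near background enter this value. Leaving out single arrays gave -2.72 to -2.25, with -2.51 without CET replicate 2 and -2.67 without CET replicate 1. The other alternatives gave -2.69 to -2.28.

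ATF5, a factor translated under stress and known for survival genes and for the mitochondrial protein response, was read by 4 probe sets that gave different patterns. At the brightest, MmugDNA.15396.1.S1_at (set 1), the deposited signals were 1744, 4170 and 2389 in CET replicates 1, 2 and 3, and 1184, 269 and 450 in VEH replicates 4, 5 and 6. All CET arrays lay above all VEH arrays, a pattern found in 5.90% of all probe sets. The log2 fold change was 2.40 (standard error 0.58), from means of 11.54 ± 0.74 for CET and 9.14 ± 0.99 for VEH (SD, n = 3). It was 2.01 without CET replicate 2, 2.95 without VEH replicate 4, which had the highest signal of the VEH arrays, and 1.90 after adjustment for the 3' to 5' ratio.

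The other ATF5 probe sets did not show this difference. MmugDNA.5737.1.S1_at (set 2) was nearly as bright as set 1, with a mean log2 signal of 10.30 against 10.34 over the 6 arrays. On the VEH arrays alone set 2 was the brighter, at 10.12 against 9.14, so set 1 was the brightest only through its CET values. Its deposited signals were 733, 1651 and 2055 after CET and 1776, 1030 and 773 after vehicle, so the groups overlapped, with CET replicate 1 the lowest of all arrays. The log2 fold change was 0.36 (standard error 0.53), with 0.0019 without CET replicate 3, 0.70 without VEH replicate 4 and 0.81 without CET replicate 1. MmugDNA.5737.1.S1_x_at (set 3), whose name marks probes that may also bind other transcripts, gave -0.16 (standard error 0.58), and MmugDNA.11758.1.S1_at (set 4) gave -0.54 (standard error 0.63). The sign of set 3 turned without CET replicate 3 (0.092) and without VEH replicate 4 (0.21), and that of set 4 without CET replicate 3 (0.0080). Without CET replicate 1 set 3 gave -0.56 and set 4 gave -0.99. For the mean over the 4 probe sets the value was 0.51 (standard error 0.43).

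Over the 6 arrays, the Pearson correlation of ATF5 set 1 was 0.59 with set 2, 0.017 with set 3 and -0.45 with set 4. Sets 2 and 3, which carry the same design number, had -0.25 with each other. Among the 648 genes with 4 probe sets, 23.3% had the same sign at all of them. Which part of the ATF5 transcript each probe set reads is not known from the files used here. The 5 genes whose pattern over the 6 arrays was most like that of ATF5 set 1, among 10928 genes that were not dim, were LOC713326 (Pearson r 0.99), TMPRSS3 (0.99), CHRM5 (0.99), TGM5 (0.98) and LOC696613 (0.98). With 6 arrays in 2 groups such values describe these arrays only.

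**Figure D2:**
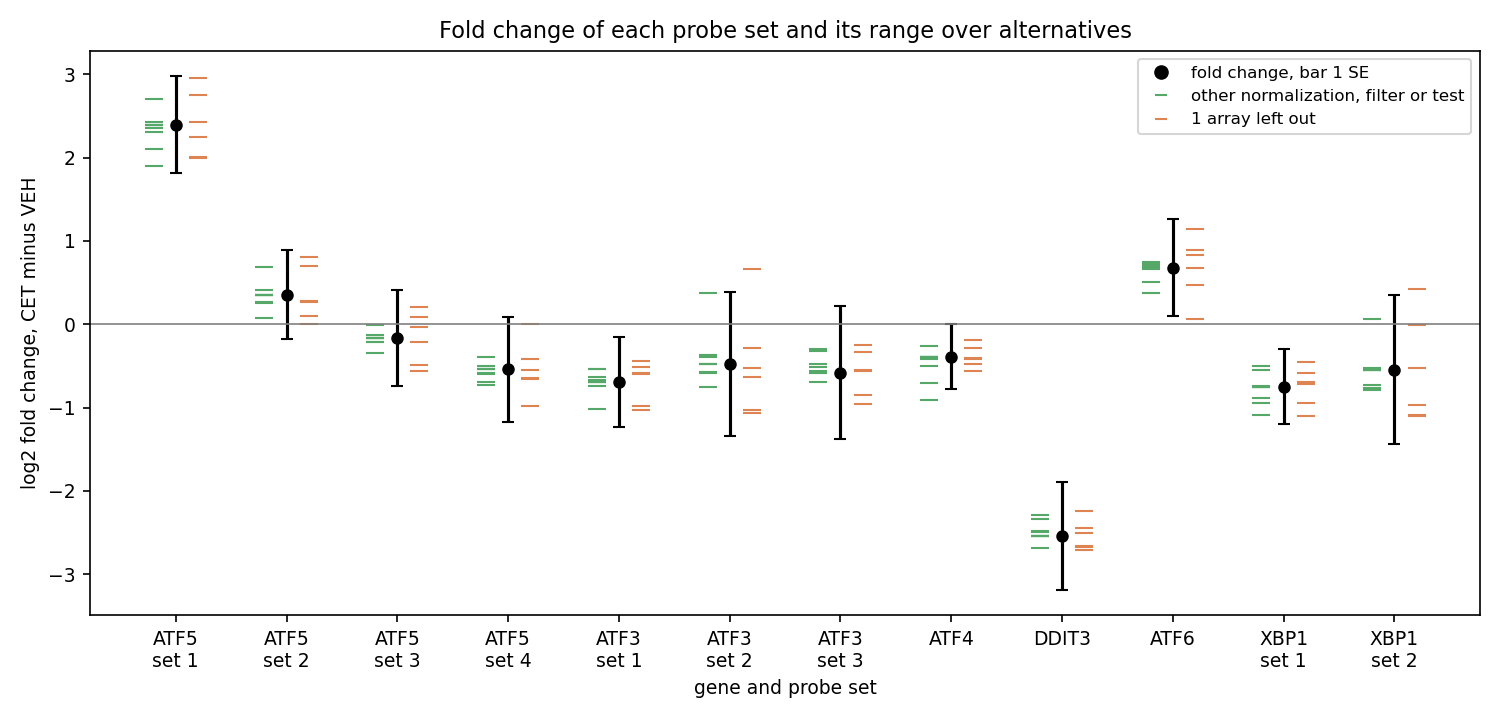
Log2 fold change, CET minus VEH, of each probe set, with gene and probe set on the horizontal axis. Black points are the limma estimates with bars of 1 standard error, green marks the other normalizations, filters and tests, and orange marks the estimates with 1 array left out. DDIT3 stays between -2.72 and -2.25 and ATF5 set 1 between 1.90 and 2.95. ATF5 set 2 ranges from 0.0019 to 0.81, set 3 from -0.56 to 0.21 and set 4 from -0.99 to 0.0080.

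ATF4, the main effector of eIF2 phosphorylation, was read by MmuSTS.512.1.S1_at, whose mean lay above 98.5% of all probe sets. The deposited signals were 5632, 3505 and 2488 in CET replicates 1, 2 and 3 and 6949, 6232 and 4978 in VEH replicates 4, 5 and 6. Only CET replicate 1 reached into the VEH range. The log2 fold change was -0.39 with a standard error of 0.39 and a limma adjusted p of 0.87. It was -0.91 with array medians subtracted and -0.19 without CET replicate 3, so its size depended on the scaling and on that array.

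ATF3, an early response factor induced by ATF4 and by other stress signals, had a lower mean at each of its 3 probe sets. All 3 had the same sign, in either direction, for 33.5% of the 1648 genes with 3 probe sets. At the brightest, MmugDNA.31246.1.S1_at, the deposited signals were 392, 721 and 333 after CET and 838, 774 and 444 after vehicle. The estimated log2 difference was -0.69 with a standard error of 0.54 and a limma adjusted p of 0.84, with -1.03 without CET replicate 2 and -0.44 without CET replicate 3. At MmugDNA.11328.1.S1_at they were 592, 58.2 and 681 after CET and 320, 312 and 504 after vehicle. CET replicate 2 stood far below the other arrays there, and the log2 fold change of -0.48 (standard error 0.86) was 0.66 without it. The remaining probe set, MmugDNA.43373.1.S1_s_at, was dim, with a mean log2 signal of 6.40, and gave -0.58 (standard error 0.80).

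ATF6, the membrane-bound sensor that becomes a transcription factor, was read by MmugDNA.13466.1.S1_at. The deposited signals were 568, 2415 and 922 in CET replicates 1, 2 and 3 and 497, 649 and 909 in VEH replicates 4, 5 and 6. CET replicate 2 was far above all other arrays, and the others were mixed. The log2 fold change was 0.68 with a standard error of 0.58 and a limma adjusted p of 0.86. Leaving out CET replicate 2 gave 0.067, and leaving out CET replicate 1 gave 1.14. CET replicate 2 had the highest 3' to 5' ratio of the control probe sets, and after adjustment for this ratio the log2 fold change was 0.38.

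XBP1, the factor activated by splicing, had lower means at both probe sets. At the brightest, MmuSTS.1841.1.S1_at, the deposited signals were 3244, 1332 and 1666 after CET and 2597, 4865 and 3610 after vehicle, with CET replicate 1 inside the VEH range and the other CET arrays below it. The log2 fold change was -0.75 with a standard error of 0.45 and a limma adjusted p of 0.83. It was -1.10 without CET replicate 1, with an unadjusted p of 0.024 and an adjusted p of 0.32, and -0.45 without CET replicate 2. At the dimmer probe set it was -0.55 (standard error 0.89). VEH replicate 5, at a signal of 1282 against 156 and 169 on the other VEH arrays, had a large part in this value, which was 0.43 without it and -0.013 without CET replicate 2.

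Over the 6 arrays, at the brightest probe sets, the Pearson correlation of DDIT3 was 0.74 with ATF4, 0.64 with ATF3, 0.61 with XBP1, -0.53 with ATF6 and -0.76 with ATF5. That of ATF5 with XBP1 was -0.91. For ATF5 these values used set 1 alone. These values describe 6 arrays that share the group difference, so they were given no test.

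Scaling between arrays cancels in the difference between genes on the same array, so the deposited log2 signals of 4 members were set against DDIT3. This comparison was chosen after the values were seen, and its 4 differences share DDIT3. The log2 signal of ATF4 minus that of DDIT3 was 5.64, 5.45 and 4.77 in CET replicates 1, 2 and 3 and 3.28, 4.23 and 3.62 in VEH replicates 4, 5 and 6. Every CET array lay above every VEH array, with means of 5.28 ± 0.46 and 3.71 ± 0.48 (SD, n = 3). The difference between the groups was 1.57, or 1.36 without VEH replicate 4. For ATF3 the difference was 1.75, for XBP1 1.40 and for ATF6 2.99, each without overlap. Since DDIT3 was taken as the reference for its low CET signals, which were near background, these values describe the same signals on another scale and were given no test. How many of all genes lie apart in this way was not counted. The lack of overlap is therefore no result about these 4 members. For XBP1 the gap was narrow, with the lowest CET array at 4.05 and the highest VEH array at 3.87, and the difference was 0.85 without VEH replicate 4.

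**Figure D3:**
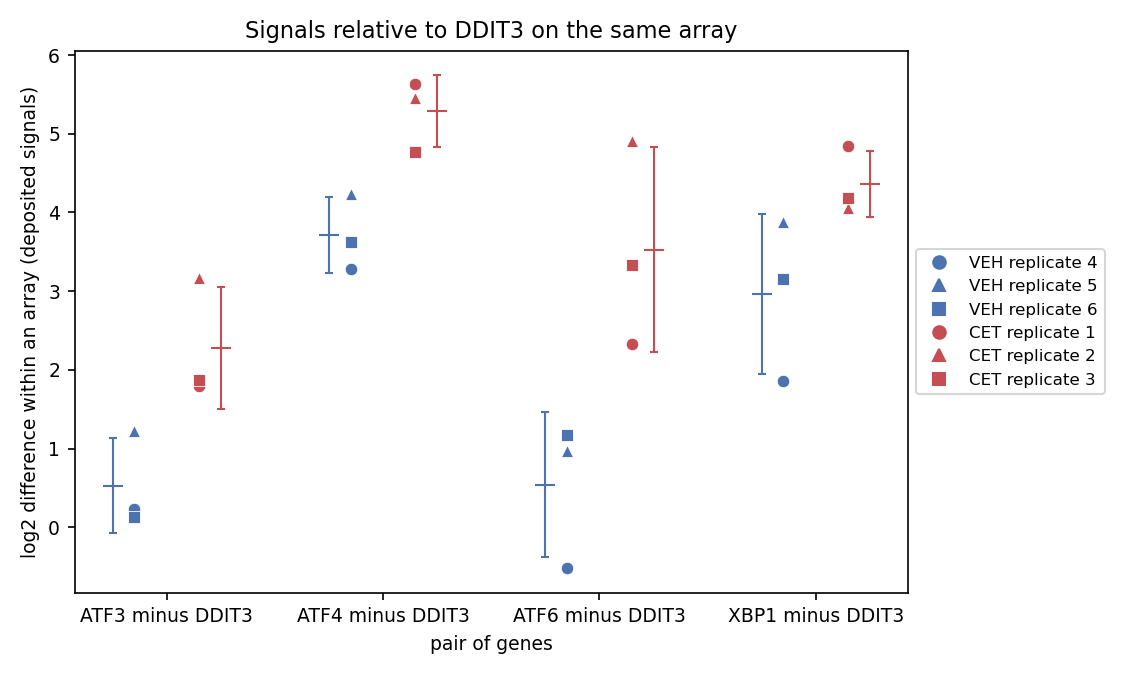
Log2 signal of ATF3, ATF4, ATF6 and XBP1 minus that of DDIT3 on the same array, from the deposited signals at the brightest probe sets, with the pair of genes on the horizontal axis. Symbols are single arrays and marks with bars are group means with 1 SD over 3 arrays. In all 4 pairs the CET arrays lie above the VEH arrays, by the smallest gap for XBP1. The shared reference, DDIT3, is itself lower on every CET array than on every VEH array.

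The other genes of these pathways were read in 5 lists, with each gene at its brightest probe set and dim genes left out. Among 10929 genes read this way, 57.7% had a lower mean after CET, the median log2 fold change was -0.13 and 5.29% had an unadjusted p under 0.05. No gene of the 5 lists passed the adjusted p. Ranges beside the standard errors run from the lowest to the highest of the 6 estimates that each leave out 1 array. In the lists as a whole, 1 of 84 genes had an unadjusted p under 0.05. Of the genes named below, CREM, CREB3, EIF2B1, TRIB3, ERO1A, SEC63 and HSPA9 each had 1 further probe set of the opposite sign.

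Among genes known as targets of ATF4 and DDIT3, 10 of 14 were lower and 4 higher in the CET mean, with a median log2 fold change of -0.69, or -0.26 without CET replicate 2. With array medians subtracted 9 of 14 were lower, near the 65.4% of all such genes. The median was then -0.96, against -0.30 for all such genes. ASNS, the asparagine synthetase gene, had -1.36 (standard error 0.75, range -1.84 to -0.59). NUPR1, a small stress-induced nuclear protein, had -0.84 (standard error 0.50, range -1.26 to -0.50). ERO1A, an ER oxidase, had -1.36 (standard error 0.81, range -1.89 to -0.78), and VLDLR, a lipoprotein receptor, -0.98 (standard error 0.62, range -1.35 to -0.36). The values nearest 0 came without CET replicate 3 for ASNS and NUPR1, and without CET replicate 2 for ERO1A and VLDLR. TRIB3, a pseudokinase that DDIT3 induces, gave 0.40 (standard error 0.66), with -0.16 without CET replicate 1 and 0.88 without CET replicate 2. None of the listed targets had an unadjusted p under 0.05.

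Among targets of ATF6 and XBP1, 21 of 27 had a lower mean, with a median of -0.46, or -0.34 without CET replicate 2, where 21 were again lower. With array medians subtracted 26 of 27 were lower and the median was -0.74, while 65.4% of all such genes were then lower, with a median of -0.30. The 4 genes of this list with the smallest unadjusted p were SEC63, SSR3, SRP54 and DERL1. SEC63, a translocon partner, had -1.01 (standard error 0.48, range -1.31 to -0.65), and SSR3, a translocon-associated subunit, -1.03 (standard error 0.50, range -1.57 to -0.75). SRP54, the signal recognition particle GTPase subunit, had -1.15 (standard error 0.55, range -1.53 to -0.82). DERL1, a channel component of ER-associated degradation, had -0.90 (standard error 0.44, range -1.22 to -0.71). For all 4 the lowest value came without CET replicate 1, and for SEC63, SSR3 and SRP54 the value nearest 0 came without CET replicate 2. HSPA5 and DNAJB9, ER chaperone genes of this branch, were not analysed here, since no probe set was annotated with these symbols.

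**Figure D4:**
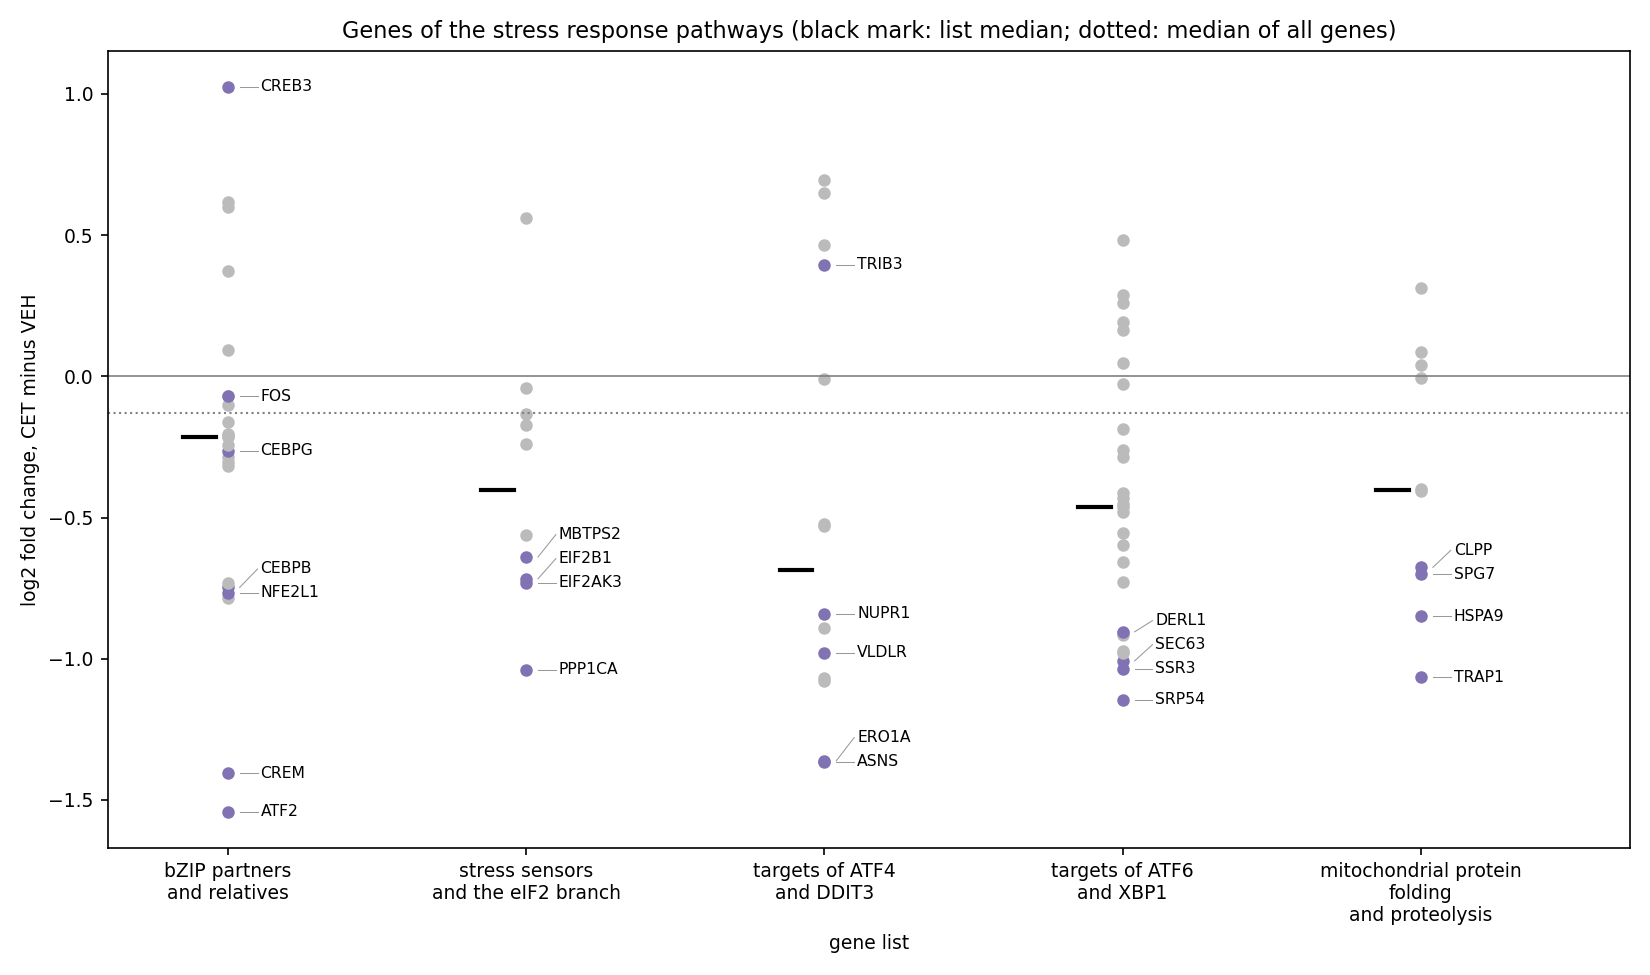
Log2 fold change, CET minus VEH, of each gene in the 5 lists that was not dim, with the list on the horizontal axis. Points are genes, purple where named in the text, black marks are list medians and the dotted line is the median over all such genes, -0.13. The list medians lie between -0.69 and -0.21.

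Of 10 stress sensors and eIF2 factors, 9 had a lower mean, with a median of -0.40 and -0.21 without CET replicate 2. EIF2AK3, the ER kinase PERK, had -0.73 (standard error 0.61, range -1.13 to -0.20). PPP1CA, a catalytic subunit of protein phosphatase 1, had -1.04 (standard error 0.55, range -1.59 to -0.46). For both, the value nearest 0 came without CET replicate 2. MBTPS2, the protease that releases ATF6, had -0.64 (standard error 0.45, range -0.75 to -0.54). All CET arrays lay below all VEH arrays for MBTPS2, a pattern found in 5.25% of all probe sets. EIF2B1, a subunit of the eIF2 exchange factor, had -0.72 (standard error 0.52, range -1.05 to -0.36), with -0.43 without CET replicate 2 and the value nearest 0 without VEH replicate 5. ERN1 was dim.

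Of 23 bZIP partners and relatives, 18 were lower and 5 higher in the CET mean, with a median of -0.21. CREM, a cAMP-responsive factor, was the 1 gene of the lists with an unadjusted p under 0.05, at -1.41 (standard error 0.59, unadjusted p = 0.037 and adjusted p = 0.83 from limma). It was -0.91 without VEH replicate 5, and CET replicate 1 lay inside the VEH range. ATF2, a factor phosphorylated by p38, had -1.54 (standard error 0.85, range -2.41 to -0.75), the value nearest 0 being that without CET replicate 2. CREB3, an ER-membrane factor of the ATF6 type, had 1.02 (standard error 0.55), with 0.56 without CET replicate 2 and 1.67 without CET replicate 1. NFE2L1, another ER-anchored factor, had -0.77 (standard error 0.47), and -0.35 without CET replicate 3. CEBPB and CEBPG are dimer partners of ATF4 and DDIT3. CEBPB had -0.75 (standard error 0.54), with -0.19 without CET replicate 3 and -1.34 without CET replicate 1, and CEBPG had -0.26 (standard error 0.41, range -0.36 to -0.18). For CEBPG, too, all CET arrays lay below all VEH arrays, though the difference was small. FOS had -0.07 (standard error 0.60), with -0.72 without CET replicate 1 and 0.41 without CET replicate 2, and JUN was not analysed here.

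Of 10 genes of mitochondrial protein folding and proteolysis, where ATF5 is known to act, 7 had a lower mean, with a median of -0.40, which was -0.19 without CET replicate 2. Leaving out CET replicate 1 gave -0.86. HSPA9, the mitochondrial Hsp70, had -0.85 (standard error 0.39, range -1.04 to -0.70, unadjusted p = 0.052 from limma). All CET arrays lay below all VEH arrays for HSPA9, as in 5.25% of all probe sets. TRAP1, a mitochondrial Hsp90, had -1.07 (standard error 0.75), and -0.25 without CET replicate 3. CLPP, a matrix protease subunit, had -0.68 (standard error 0.57, range -1.17 to -0.30), the value nearest 0 being that without VEH replicate 4. SPG7, an inner membrane protease, had -0.70 (standard error 0.61), with -0.24 without CET replicate 2 and -1.37 without CET replicate 1. HSPD1 was not analysed here.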

How the data were processed

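CL RNA of 3 CET and 3 VEH samples was read on 1 Affymetrix rhesus array each. The authors deposited MAS5 signals, an intensity on a linear scale, scaled to a trimmed mean of 500.0 on each array. For the MAS5 version and the detection calls, nothing is given in the sources used here. Groups were taken from sample titles. From these signals, values under 1 were set to 1, log2 values were quantile-normalized, and 158 control probe sets were left out. The difference CET minus VEH was fitted for 52707 probe sets in R 4.3.3 (limma 3.58.1, trend on intensity, without covariates), and p-values were adjusted over all of them (Benjamini-Hochberg). Symbols came from the platform annotation. Of these probe sets, 24956 had a single symbol, 361 several and 27390 none. The limit for dim probe sets was the 40th percentile of mean log2 signal. Precision is limited by 3 arrays a group, with a median replicate SD of 0.846 (log2). The test was checked on simulated data with independent normal noise for each probe set and array. The simulation held no differences in RNA quality between arrays and no correlation between probe sets, so it does not cover these features of the real arrays.

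Genes named in the text are the 6 members, the 4 genes of each list with the smallest p, a few genes named whatever their values, and the 5 genes most like ATF5. Members and lists were chosen with earlier results of these data known. Alternatives were other normalizations, a filter on dim probe sets, a floor at the 20th percentile of each array, a pseudocount of 16, other tests, adjustment for the 3' to 5' ratio, the mean over probe sets and leaving out each array. No batch was labelled.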

Additional observations from a re-analysis of the deposited data

Results flagged for a closer look

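In the control probe sets, CET replicate 2 had a 3' to 5' signal ratio above every VEH array, at 142.9 for GAPDH (highest VEH array 7.31), 37.15 for ACTB (highest VEH array 22.4) and 42.16 for EF1A (highest VEH array 9.56). Without that array the log2 fold change of DDIT3 was -2.51 and that of ATF5 at its brightest probe set 2.01, while that of ATF6 was 0.067 in place of 0.68.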

How the results depend on the processing

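At the brightest probe set the direction of each of the 6 genes was the same in the 16 alternatives run there, and in the same alternatives 0 probe sets had an adjusted p under 0.05. With the mean over the probe sets of a gene, ATF5 had a log2 fold change of 0.51 in place of 2.40. With single arrays left out, ATF5 ranged from 1.99 to 2.95. The number of all probe sets at an unadjusted p under 0.05, 2840, was 1756 with dim probe sets left out, 5086 with array weights, and 1696 (without VEH replicate 5) to 6997 (without CET replicate 1) when single arrays were left out. Outside ATF5, an unadjusted p under 0.05 was found for 1 of 8 member probe sets, DDIT3, and for 2 with array weights and without CET replicate 1, which added XBP1. With array medians subtracted, the median of the stress sensors and eIF2 factors was -0.77. On the signals as deposited the median over all probe sets shifted to 0.17, so DDIT3, at -2.28 there, and ATF5, at 2.31, are to be read against that shift. The difference of ATF4 to DDIT3 within an array was 2.15 from quantile-normalized values in place of 1.57. The cause of these changes was not tested. No paired analysis was possible because the labels number the arrays 1 to 6 and pair no CET with a VEH sample. Signals near background limit DDIT3 after CET.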

Other observations

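MAFK, a small Maf protein that pairs with other bZIP factors, was dim and so stood outside the counts of its list. It was singled out after its values were seen. Its log2 fold change was 1.88 (standard error 0.73), with an adjusted p of 0.83 from limma. All CET arrays lay above all VEH arrays, a pattern found in 5.90% of all probe sets. Its VEH mean log2 signal was 5.99, so signals near background enter this value.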
